A study of Mus musculus with 2 samples.

Results

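Of the 31253 genes in the deposited tables, 9 transcription factor genes known from helper and effector T cell programmes were followed: Tbx21, Gata3, Bcl6, Prdm1, Maf, Bhlhe40, Irf4, Tox and Tox2. They were chosen by symbol, and all 9 were found. Regulatory T cells (Treg cells), which hold immune responses in check, had been sorted as CD4+Foxp3+ cells from the spleens of mice and profiled by 10x Genomics 3′ single-cell RNA sequencing. Mice of both groups carried Foxp3YFP-Cre, a Cre recombinase with a yellow fluorescent protein expressed from Foxp3. One group was Kmt2d+/+ (written +/+ here) and the other carried the floxed allele, Kmt2dfl/fl (written fl/fl). Kmt2d encodes a histone methyltransferase that acts at enhancers. Cells of 3 mice were pooled in each library, with 1 library per genotype and no replicate, so no test between genotypes was possible. The values below describe 2 libraries, and each interval is a 95% interval that covers counting error only. Age and sex are not given in the sources used here.

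The 9 proteins are best known from the fates of conventional T cells. Tbx21 encodes T-bet, the lineage factor of T helper 1 (Th1) cells, Gata3 that of Th2 cells, and Bcl6 that of T follicular helper (Tfh) cells. Prdm1 encodes Blimp-1, a repressor that opposes Bcl6, and Maf (c-Maf) is used by Tfh and interleukin-10-producing cells. Irf4 and Bhlhe40 are induced by T cell receptor signals. Tox and Tox2 encode a pair of related HMG-box proteins linked to thymic CD4 T cell development, Tfh cells and chronically stimulated T cells. Treg cells borrow several of these factors when they leave the resting state: Blimp-1, IRF4 and c-Maf are part of the effector Treg programme, and GATA3 marks many Treg cells of tissues.

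The +/+ library held 7947 barcodes with a median of 5562 unique molecular identifiers (UMIs), and the fl/fl library held 8784 with a median of 6039.5. The libraries shared 15 barcodes. After filters and removal of doublets, 7697 and 8455 cells were left. Treg cells were gated as T cells with no Cd8a or Cd8b1 UMI and with a Foxp3 UMI or at least 3 UMIs of Ikzf2 (Helios), which gave 3825 +/+ and 3691 fl/fl cells. A Foxp3 UMI was present in 22.1% and 18.2% of them, and Foxp3, which the gate uses, was at 41.4 and 27.5 counts per 1e6 UMIs (CPM). Although the sort was for Treg cells, gates for conventional CD4 T cells held 947 and 875 cells, for CD8 T cells 266 and 369, and for B cells 520 and 1293. No gate took 27.8% and 26.3% of the cells. Kmt2d itself was at 70.7 and 67.5 CPM in Treg cells. A 3′ tag outside the deleted exons says nothing about the deletion, and which exons were floxed is not given in the sources used here.

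Each gate was split into states by counting, in every cell, how many of 8 resting or naive markers (such as Ccr7, Lef1, Tcf7 and Klf2) and how many of 8 effector markers had a UMI. The effector markers of Treg cells were Icos, Tigit, Tnfrsf9, Itgae, Cd44, S100a4, S100a6 and Lgals1, and conventional cells had lists of their own with Cxcr3 and Ccl5. None of the 9 factors is among these markers. Cxcr3 and Ccl5 are also in the Th1 list used below, and their part in the Tbx21 levels of the gates they define was not tested. Resting Treg cells, with more resting markers, numbered 2314 and 3141, or 60.5% of +/+ and 85.1% of fl/fl Treg cells. Effector Treg cells were split by a UMI of Klrg1, Il10 or Gzmb, genes of terminal effector function. Those without one numbered 783 (20.5%) and 206 (5.58%), and those with one 360 (9.41%) and 174 (4.71%). The part of Il10, as a gate marker, in the Maf and Prdm1 levels of these states was not tested. These states are ranges on a score and not types: 1159 +/+ and 458 fl/fl Treg cells lay within 1 marker of the boundary, of which 368 and 170 were ties and entered neither state. Of the markers that no gate used, Ctla4 was at 895 and 860 CPM in Treg cells and at 123 and 164 CPM in CD8 T cells. Bach2, a factor of quiescent T cells, was at 886 and 998 CPM in resting Treg cells and at 179 and 105 CPM in effector cells with a UMI of Klrg1, Il10 or Gzmb. Over all Treg cells the log2 ratios (fl/fl over +/+) of other check markers were -2.30 for Ccr8, -1.195 for Tnfrsf4 and -0.89 for Tnfrsf18. They were -0.86 for Capg, 0.38 for Il2ra and 0.30 for Dapl1. In resting Treg cells Ccr8 (-2.07), Tnfrsf4 (-0.99), Tnfrsf18 (-0.90) and Capg (-0.62) were also at least 1.5-fold lower. Il2ra (0.28) and Dapl1 (-0.12) fell short of that. How far a gate holds matching cells in both libraries was not tested. Naive conventional CD4 cells held 386 and 351 CPM of Ctla4 with Foxp3 at 0 by the gate, and the part of unrecognised Treg cells in their values was not tested. The 6 markers of other cells (Cd74, Jchain, S100a8, S100a9, Hbb-bs and Klrb1c) summed to 85.9 and 109.6 CPM in Treg cells, with 6 of 6 detected in both libraries. Over the 3 Treg states their sum was 63.1 to 139.5 CPM in +/+ and 106.3 to 147 CPM in fl/fl, with Hbb-bs at 0 in both effector states of fl/fl. Cycling cells, with a UMI of Mki67 or Top2a, made 12% of +/+ and 20.7% of fl/fl Treg cells. With cycling cells left out, Bhlhe40 in Treg cells had a log2 ratio (fl/fl over +/+) of -1.79 and Tox2 of -2.66, beside -1.66 and -2.45 with them. The part of the other-cell markers in the results was not tested.

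Over all Treg cells, 3 of the 9 factors were at least 1.5-fold lower in the fl/fl library with an interval excluding no difference, and none was higher. The 3 were Bhlhe40, Tox2 and Tbx21. Under the same rule of size, 9.49% of the 8040 genes at 10 CPM or more were lower and 2.48% higher. The median log2 ratio (fl/fl over +/+) was -0.39 for the 9 factors and -0.13 for all genes. Relative to that shift of all genes, the log2 ratios were -1.53 for Bhlhe40, -2.31 for Tox2 and -0.57 for Tbx21, and the last no longer reached 1.5-fold.

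The states gave a different picture from the whole. In resting Treg cells 2 of 7 measured factors were lower (Bhlhe40 and Tox2) and 0 higher, beside 8.1% and 2.59% of all genes, whose median ratio was -0.11. In effector cells without a UMI of Klrg1, Il10 or Gzmb, 3 of 9 were lower (Bcl6, Bhlhe40 and Tox2) and 1 was higher (Prdm1), beside 7.88% and 5.32%. In effector cells with such a UMI 5 of 9 were lower (Gata3, Bcl6, Bhlhe40, Tox and Tox2) and 0 higher, beside 11.5% and 6.12%. In activated conventional CD4 cells 2 of 9 were higher (Tbx21 and Bhlhe40) and 1 lower (Irf4), beside 3.45% and 5.12%. In naive CD8 cells 3 of 7 were higher (Tbx21, Bhlhe40 and Irf4) and 0 lower, beside 2.05% and 3.97%. Naive conventional CD4 cells had 0 of 6 past the rule in either direction, beside 1.44% of all genes higher and 5.19% lower, and memory CD8 cells 0 of 8, beside 2.4% and 2.99%. Over the whole conventional CD4 gate 4 of 9 were higher (Tbx21, Prdm1, Bhlhe40 and Tox2) and 0 lower, beside 2.19% and 3.31% of all genes, and over the whole CD8 gate 1 of 8 was higher (Tbx21) and 0 lower, beside 1.9% and 3.27%. These gates mix naive and activated cells in shares that differ between the libraries.

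**Figure D1:**
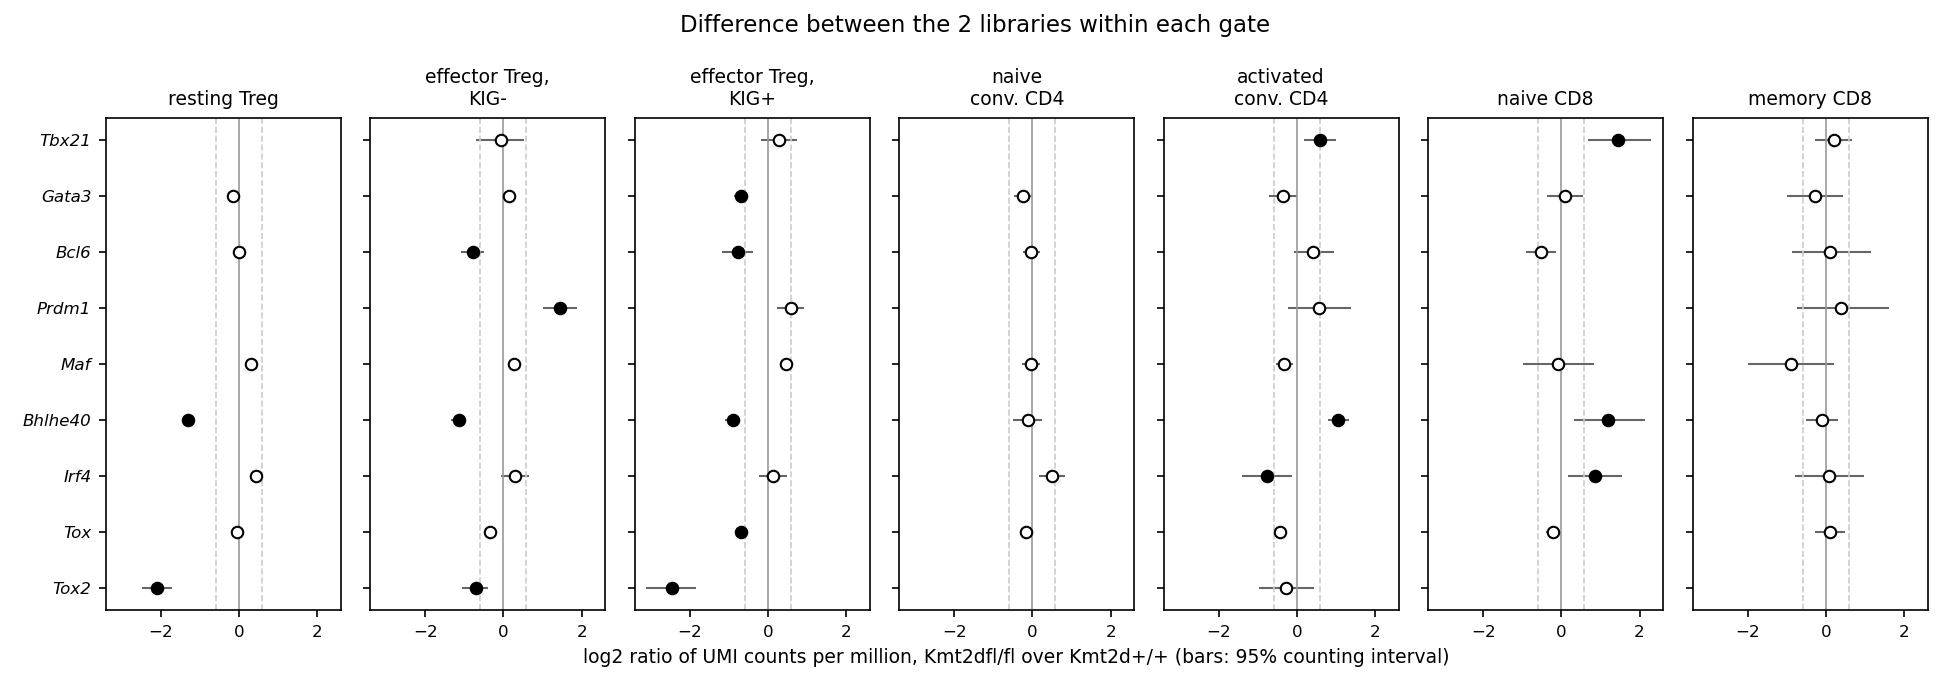
Log2 ratio of CPM, fl/fl over +/+ (x axis), of the 9 factors (rows) in 7 gates (panels), with bars for the 95% counting interval; KIG- and KIG+ are effector Treg cells without and with a UMI of Klrg1, Il10 or Gzmb, filled points passed the 1.5-fold rule (dashed lines), and factors under 10 CPM in both libraries are not drawn. Bhlhe40 and Tox2 lie to the left in all 3 Treg states, whereas Bhlhe40 lies to the right in activated conventional CD4 and naive CD8 cells.

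Bhlhe40 was lower past the rule in every Treg state. The gene lies at chr6:108660629-108666925 on the plus strand (GRCm38, GENCODE M21) and encodes a basic helix-loop-helix repressor that limits Il10 in T cells. Across all Treg cells it was at 211 CPM in the +/+ library against 66.6 CPM in the fl/fl one, a log2 ratio of -1.66 (-1.74 to -1.59). In resting cells the levels were 116 and 47.0 CPM (-1.30, -1.41 to -1.19). Of these counts, 993 of 1803 in +/+ and 343 of 1167 in fl/fl lay in cells with only 1 or 2 more resting than effector markers. In effector cells the levels were 391 and 178 CPM without a UMI of Klrg1, Il10 or Gzmb (-1.14) and 370 and 198 CPM with one (-0.90). The intervals of the libraries did not overlap in any of the 3 states. In effector cells with such a UMI, 10 cells held 43.3% of the 275 fl/fl counts, against 13.9% of the 833 in +/+. Fewer cells carried the transcript: with each cell thinned to 2500 UMIs, 30.7% of +/+ and 11% of fl/fl Treg cells had a Bhlhe40 UMI, and the cells with a UMI held 1.82 and 1.41 UMIs each. Before thinning the shares were 45.1% and 22.5%. Cells with a Foxp3 UMI gave nearly the ratio of those without, -1.64 and -1.68. In effector cells with a UMI of Klrg1, Il10 or Gzmb the Bhlhe40 ratio was -2.11 (-2.90 to -1.41) with a Foxp3 UMI, where fl/fl had 25 cells, and -0.75 (-0.97 to -0.54) without. An overlapping gene on the other strand, 0610040F04Rik, was not told apart here, since the counting of strand is not given in the sources used here.

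The order of Bhlhe40 levels across the gates differed between the libraries. In +/+ the effector Treg gates stood at the top, with overlapping intervals, followed by memory CD8 cells (199.5 CPM) and activated conventional CD4 cells (172 CPM), which overlapped, and by resting Treg cells (116 CPM), naive CD4 cells (33.7 CPM) and naive CD8 cells (10.0 CPM). In fl/fl the activated conventional CD4 cells stood at the top with 356 CPM (324 to 391), above effector Treg cells with a UMI of Klrg1, Il10 or Gzmb at 198 CPM (175 to 223). The log2 ratio in activated conventional CD4 cells was 1.05 (0.79 to 1.32), opposite to the Treg ratio. The thinned share of these cells with a Bhlhe40 UMI was 30.1% in +/+ and 50% in fl/fl. Taking the ratio of effector Treg cells without a UMI of Klrg1, Il10 or Gzmb minus that of activated conventional CD4 cells, the difference was -2.19 on the log2 scale (-2.51 to -1.87). Naive conventional CD4 cells were at 33.7 and 31.1 CPM, a ratio of -0.12 (-0.49 to 0.25).

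Irf4, a factor induced by T cell receptor signals and required by effector Treg cells (chr13:30749226-30766976, plus strand), did not reach the rule in any Treg state taken whole. Over all Treg cells the +/+ library held 40.3 CPM and the fl/fl library 44.8 CPM, a log2 ratio of 0.15 (0.03 to 0.27). Resting cells had 30.1 and 40.8 CPM (0.44, 0.28 to 0.60), short of 1.5-fold. Among resting cells with a Foxp3 UMI, however, Irf4 was higher in fl/fl, 31.9 against 53.4 CPM (0.74, 0.43 to 1.06), and those without one had 29.45 and 37.5 CPM (0.35, 0.16 to 0.54). The effector gates had 49.3 and 60.9 CPM without a UMI of Klrg1, Il10 or Gzmb, and 72.4 and 79.2 CPM with one, with overlapping intervals in each. Naive conventional CD4 cells had 34.15 and 48.1 CPM (0.50, 0.17 to 0.82), also short of 1.5-fold. The resting Treg ratio minus that of naive conventional CD4 cells was -0.05 (-0.41 to 0.30). Outside the Treg gate Irf4 passed the rule in opposite directions. In activated conventional CD4 cells it was at 53.2 and 31.3 CPM, from 48 and 40 counts (-0.77, -1.41 to -0.13). In naive CD8 cells it was at 18.0 and 32.5 CPM, from 27 and 61 counts (0.85, 0.17 to 1.56). These low counts make the sizes imprecise.

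Tox2 had the widest difference of the 9 in Treg cells. It lies at chr2:163203125-163324170 on the plus strand and encodes an HMG-box protein known from Tfh cells. Its promoter window is shown because Tox2 was lower in all 3 Treg states. The 250 bases before its upstream RefSeq start (chr2:163202877-163203126, plus strand, GRCm38.p6) read as follows, with no match to the 8 motifs searched, which would stand in capitals.
Tox2: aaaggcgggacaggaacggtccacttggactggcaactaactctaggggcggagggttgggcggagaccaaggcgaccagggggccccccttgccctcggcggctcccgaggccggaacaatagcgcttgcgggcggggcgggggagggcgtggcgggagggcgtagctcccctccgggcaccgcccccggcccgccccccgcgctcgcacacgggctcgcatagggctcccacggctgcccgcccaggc
This window is 75.2% G or C. No match says only that those letters are not in this window.

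In all Treg cells Tox2 was at 42.3 CPM (1047 counts) in +/+ against 7.77 CPM (225 counts) in fl/fl, a log2 ratio of -2.45 (-2.66 to -2.24). Resting cells had 14.0 and 3.30 CPM (-2.08, -2.47 to -1.71). Most of these counts, 175 of 218 in +/+ and 53 of 82 in fl/fl, lay in cells with only 1 or 2 more resting than effector markers. At a score of 1 the levels were 47.7 and 19.1 CPM with intervals that did not overlap, and at 2 and 3 they were 19.6 and 12.8 CPM and 9.73 and 5.67 CPM with intervals that did. Effector cells with a UMI of Klrg1, Il10 or Gzmb had 94.6 and 17.3 CPM (-2.45, -3.13 to -1.84). In effector cells without one the levels were 105 and 64.3 CPM, a smaller difference of -0.71 (-1.05 to -0.39). The fl/fl values rested on few cells in each state. Without such a UMI, 94 counts of effector cells lay in 33 cells, and 10 cells held 63.8% of them. With one, 24 counts lay in 10 cells, and among resting cells 82 counts lay in 42 cells, with 51.2% in 10 of them. Effector cells without a UMI of Klrg1, Il10 or Gzmb were also split by a Foxp3 UMI. With a Foxp3 UMI there were 72 counts in 142 +/+ cells and 1 count in 36 fl/fl cells (-4.18, -9.51 to -1.66). Without a Foxp3 UMI the ratio was -0.56 (-0.90 to -0.24). The thinned share of Treg cells with a Tox2 UMI was 7.67% in +/+ and 1.22% in fl/fl, and 12.7% and 2.74% before thinning. In B cells, which should lack it, the thinned share was 0 of 513 cells, which allows up to 0.585%, and 0.243% of 1233 cells. B cells had median depths of 5070 and 4520 UMIs and Treg cells 5598 and 6899 before thinning. In fl/fl resting Treg cells the thinned share was 0.543% (0.317 to 0.868), which overlaps that of the fl/fl B cells (0.0502 to 0.709), whereas the level of 3.30 CPM (2.63 to 4.1) did not overlap the 1.29 CPM (0.665 to 2.25) of those B cells. Conventional CD4 cells differed from Treg cells: naive cells had 5.34 and 7.46 CPM and activated cells 37.7 and 31.3 CPM, with overlapping intervals in each. Over the whole conventional CD4 gate Tox2 was at 11.2 and 18.7 CPM (0.74, 0.27 to 1.22), higher in fl/fl past the rule, with 14.9% and 24.9% of that gate activated. For resting Treg minus naive conventional CD4 cells the difference of log2 ratios was -2.56 (-3.45 to -1.68). Tox2 had 3 or fewer counts in naive CD8 cells of both libraries. In +/+ memory CD8 cells it had 0 of 410957 UMIs, which allows up to 7.30 CPM, and in fl/fl 4 counts.

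Tox, the other HMG-box gene (chr4:6686353-6991557, minus strand), was detected in most Treg cells. Its thinned share was 81.4% in +/+ and 79.5% in fl/fl, beside 2.14% and 1.22% in B cells. The level over all Treg cells was 1398 and 1067 CPM, a log2 ratio of -0.39 (-0.41 to -0.37). Resting cells hardly differed, with 1043 and 1015 CPM (-0.04, and 0.07 when the ratios are centred on all genes). Effector cells without a UMI of Klrg1, Il10 or Gzmb had 2075 and 1646 CPM (-0.33), and those with one 2030 and 1252 CPM (-0.70, -0.78 to -0.62), past the 1.5-fold rule. The resting minus effector difference of the log2 ratios was 0.66 (0.57 to 0.74) for that last state. Outside Treg cells Tox was at 508 and 450 CPM in naive CD4, 651 and 486 CPM in activated CD4, 372 and 318 CPM in naive CD8 and 217 and 233 CPM in memory CD8 cells, none past 1.5-fold between the libraries.

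**Figure D2:**
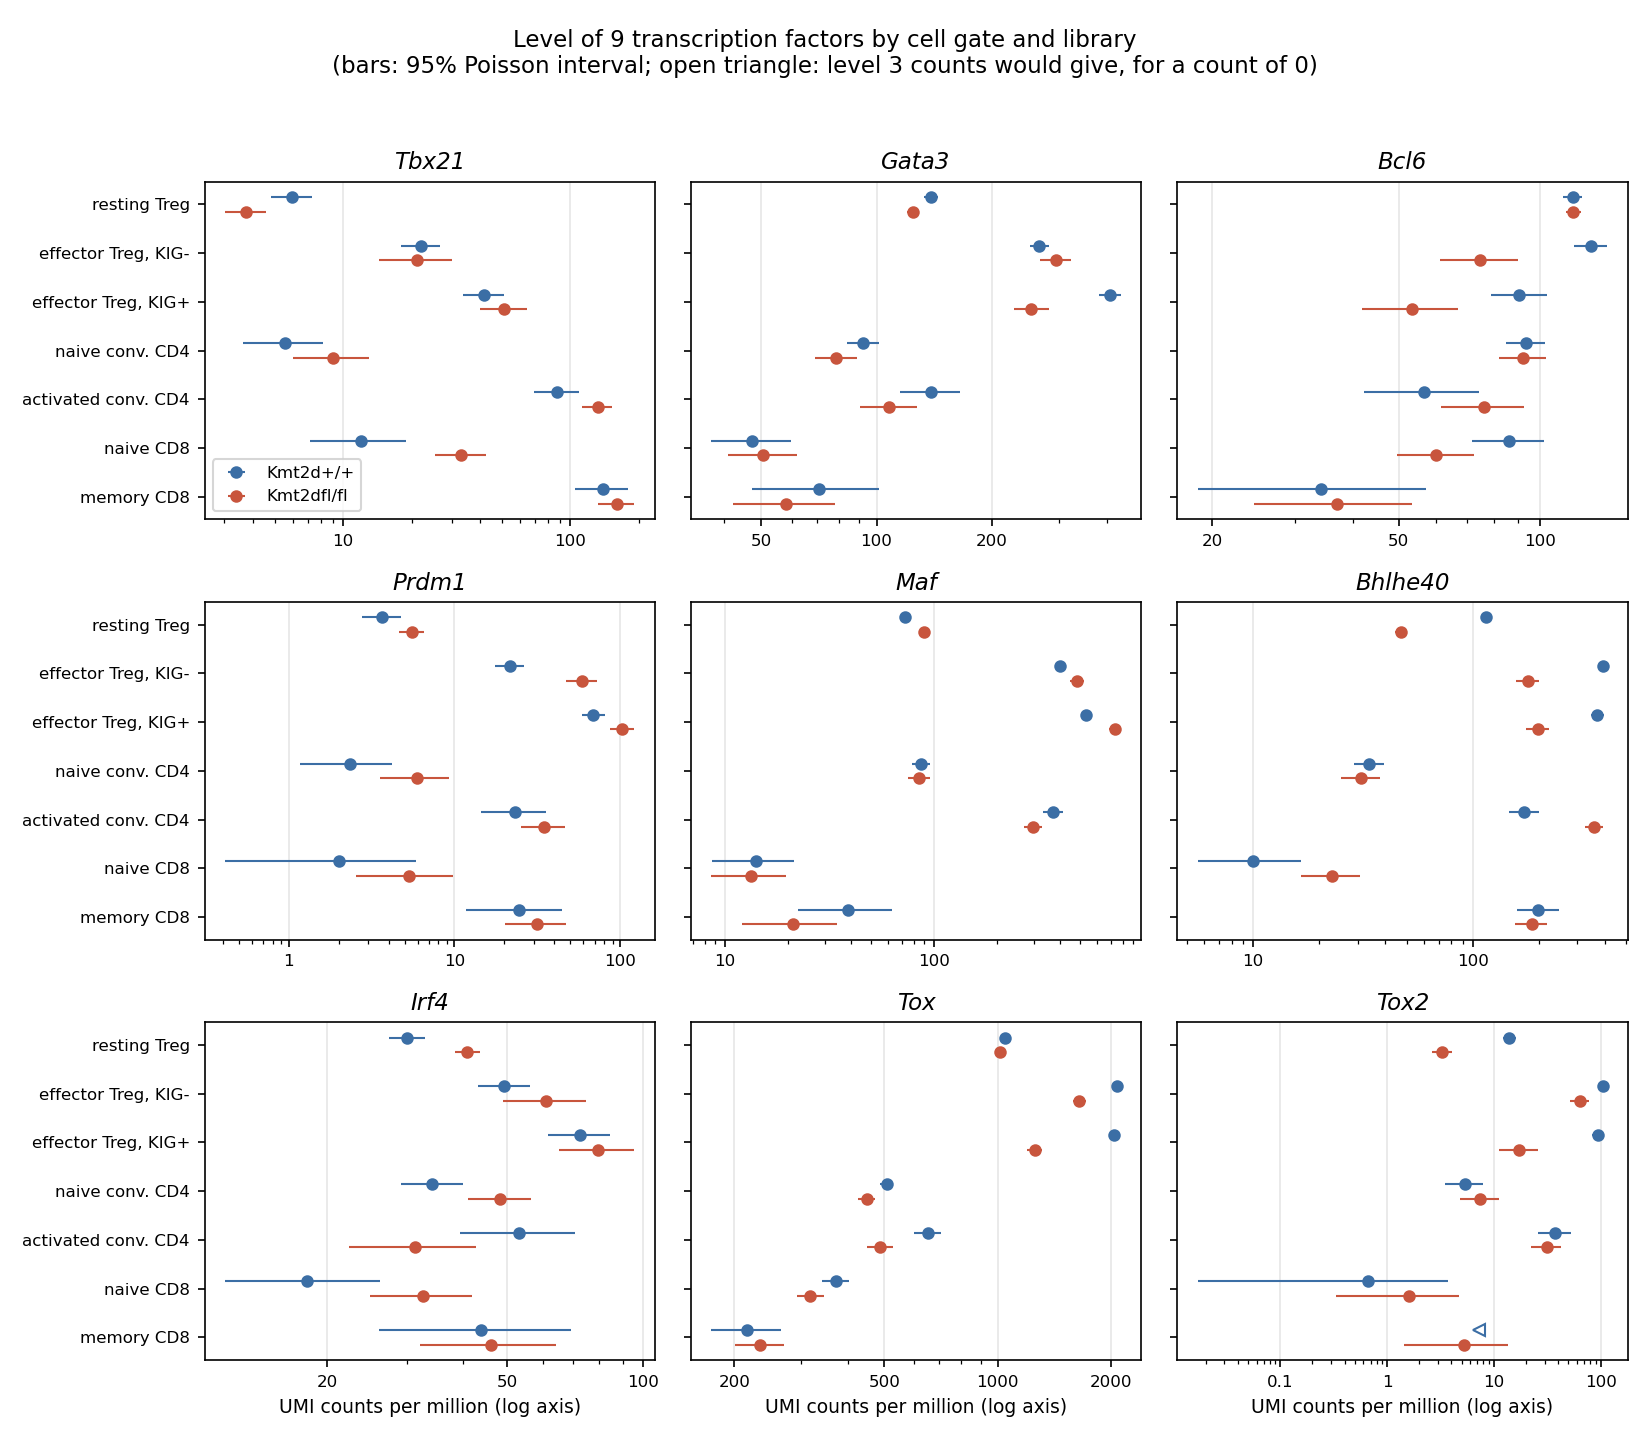
Level of each of the 9 factors (panels) in CPM on a log axis, in 7 gates (rows) of the +/+ library (blue) and the fl/fl library (red), with bars for the 95% Poisson interval and an open triangle at the level of 3 counts for the count of 0; KIG marks a UMI of Klrg1, Il10 or Gzmb. Maf and Prdm1 are at their highest in effector Treg cells with such a UMI, at 536 and 68.8 CPM in +/+, and Tbx21 in memory CD8 cells at 139 CPM.

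Bcl6 and Prdm1, whose proteins oppose each other, moved apart in effector Treg cells without a UMI of Klrg1, Il10 or Gzmb. Bcl6, the Tfh factor (chr16:23965052-23988852, minus strand), was at 117.6 and 118.1 CPM in resting cells (ratio 0.01, -0.08 to 0.09). In effector cells without a UMI of Klrg1, Il10 or Gzmb it was at 129 and 74.5 CPM, a log2 ratio of -0.79 (-1.10 to -0.49). With such a UMI it was at 90.6 and 53.3 CPM (-0.77, -1.17 to -0.37). The difference of the ratios, resting minus effector without, was 0.79 (0.49 to 1.10). Over all Treg cells the levels were 117 and 112 CPM, with a ratio of -0.07 that became 0.07 when centred on all genes. The thinned share in effector cells without those UMIs was 24.1% in +/+ and 13.7% in fl/fl. B cells express Bcl6 themselves, at 18.7% and 17.7% of cells, and so give no background level for it. In +/+ Treg cells the effector level was 0.988 times the resting one, and in fl/fl 0.544 times. Outside Treg cells Bcl6 was at 86.1 and 60.2 CPM in naive CD8 cells (-0.52, -0.89 to -0.14), short of 1.5-fold. Its ratio in B cells was -0.29 (-0.48 to -0.09). In activated conventional CD4 cells the ratio was 0.43 (-0.08 to 0.94), in naive conventional CD4 cells -0.02 and in memory CD8 cells 0.12.

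Prdm1 (chr10:44437177-44528501, minus strand) went the other way. In effector cells without a UMI of Klrg1, Il10 or Gzmb the +/+ library held 21.6 CPM and the fl/fl library 58.8 CPM, from 101 and 86 counts, a log2 ratio of 1.44 (1.01 to 1.87). With such a UMI it was at 68.8 and 103 CPM (0.58, 0.24 to 0.92), a fold just short of 1.5 that passes when the ratios are centred on all genes (0.66). Resting cells, at 3.66 and 5.52 CPM, were under the 10 CPM floor. Over all Treg cells the levels were 13.8 and 14.4 CPM (0.06, -0.15 to 0.27). The thinned share in effector cells without those UMIs was 5.21% in +/+ (3.75 to 7.03) and 14.7% in fl/fl (10.2 to 20.3). In naive CD8 cells it was 0 of 191 cells, which allows up to 1.57%, and 1.72% of 232 cells, at median depths of 7133 and 7288 UMIs. In +/+ resting Treg cells it was 0.608% (0.333 to 1.02). In fl/fl resting Treg cells it was 1.53% (1.13 to 2.03), within the wide interval of the fl/fl naive CD8 cells (0.472 to 4.355). Of the 137 Prdm1 counts there, 72 lay in cells with only 1 or 2 more resting than effector markers, at 30.6 and 14.6 CPM. For Prdm1, effector cells without a UMI of Klrg1, Il10 or Gzmb were also split by a Foxp3 UMI. With a Foxp3 UMI the log2 ratio was 1.40 (0.39 to 2.375), from 24 and 16 counts. Without a Foxp3 UMI it was 1.47, from 77 and 70 counts. Outside Treg cells Prdm1 was at 6.60 and 14.7 CPM over the whole conventional CD4 gate (1.15, 0.57 to 1.75). Activated conventional CD4 cells had 23.3 and 34.45 CPM (0.565, -0.22 to 1.39) and memory CD8 cells 24.3 and 31.6 CPM (0.38, -0.74 to 1.61). Both naive gates were under the floor. The effector Treg ratio minus the activated conventional CD4 one was 0.88 (0.02 to 1.73) without a UMI of Klrg1, Il10 or Gzmb. With such a UMI it was 0.02 (-0.80 to 0.84).

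Since Bcl6 and Prdm1 moved apart, the 250 bases before their RefSeq starts are shown (GRCm38.p6, minus strand). Capitals mark matches to the motifs that occur in them: the BCL6-type motif (TTCNNNGAA), the class B E-box (CACGTG) and the AP-1 motif (TGANTCA). The other motifs searched on both strands were the T-box core (TCACACC), the GATA-factor motif (AGATAA), the Blimp-1/IRF motif (AAGTGAAA), the MARE core (TGCTGANTC) and the IRF pair (GAAANNGAA), held by 3.33%, 9.99%, 1.36%, 1.07% and 7.13% of windows. The first window ends before the annotated gene (chr16:23988853-23989102), and the next lies within it (chr16:23981284-23981533), outside its annotated exons.
Bcl6, start of the gene: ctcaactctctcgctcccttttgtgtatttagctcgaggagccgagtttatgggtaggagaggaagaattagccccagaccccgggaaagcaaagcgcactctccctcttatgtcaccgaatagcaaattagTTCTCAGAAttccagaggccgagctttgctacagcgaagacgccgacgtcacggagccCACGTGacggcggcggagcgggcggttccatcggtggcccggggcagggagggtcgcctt
Bcl6, inner start: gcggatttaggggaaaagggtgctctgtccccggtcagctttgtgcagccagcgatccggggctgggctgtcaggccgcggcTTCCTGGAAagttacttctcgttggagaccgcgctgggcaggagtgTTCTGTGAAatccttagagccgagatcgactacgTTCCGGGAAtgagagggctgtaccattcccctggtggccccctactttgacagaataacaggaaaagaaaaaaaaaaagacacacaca
Prdm1: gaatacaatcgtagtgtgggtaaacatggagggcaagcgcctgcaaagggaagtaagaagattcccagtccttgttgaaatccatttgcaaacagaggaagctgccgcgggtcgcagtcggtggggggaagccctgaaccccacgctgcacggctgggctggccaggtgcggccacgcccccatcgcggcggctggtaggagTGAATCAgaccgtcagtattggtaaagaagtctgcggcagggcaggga
The Prdm1 window (chr10:44458749-44458998) also lies within the annotated gene and outside its exons. The first Bcl6 window holds 1 BCL6-type match at base 133 and an E-box at base 191, counted from 1 at the 5′ end. The inner Bcl6 window holds 3 BCL6-type matches, at bases 83, 129 and 163. The Prdm1 window holds an AP-1 match at base 203 and neither a BCL6-type nor a Blimp-1/IRF match. Of 32851 mouse windows of this length, 7.02% held the BCL6-type letters, 6.02% the E-box and 6.75% the AP-1 letters. Windows were in the RefSeq table for 6 of the 9 genes. A match is a description of the letters and not a binding site.

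Co-detection in single Treg cells was also counted. Of the 125 thinned fl/fl Treg cells with a Prdm1 UMI, 8% had a Bcl6 UMI (3.90 to 14.2), against 24.7% of those without (23.3 to 26.2). In +/+ the shares were 17.1% (10.6 to 25.4) of 111 cells and 23.6% (22.3 to 25.0), which overlap. Within the effector states the Bcl6 intervals overlapped in both libraries. Prdm1 was seen with Maf in both libraries: 71.2% of +/+ and 65.6% of fl/fl cells with a Prdm1 UMI had a Maf UMI, against 26.1% and 18.7% of the other cells. Both genes were more abundant in effector than in resting cells, and the part of the state in these shares was not tested. Within effector cells without a UMI of Klrg1, Il10 or Gzmb the Maf shares were 85.0% and 49.9% in +/+, and 83.3% and 54.6% in fl/fl.

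Maf (chr8:115682942-115707794, minus strand) had a negative ratio over all Treg cells and a positive one in each state. Over all Treg cells it was at 196 and 155 CPM, a log2 ratio of -0.34 (-0.40 to -0.28), which is -0.21 relative to all genes. By state it was at 72.9 and 89.8 CPM in resting cells (0.30, 0.20 to 0.40), 400.2 and 483 CPM in effector cells without a UMI of Klrg1, Il10 or Gzmb (0.27, 0.14 to 0.40), and 536 and 735 CPM with one (0.45, 0.33 to 0.58). None of these 4 ratios reached 1.5-fold, and each interval excluded 0. Effector cells held 6.10 times the resting level in +/+ and 6.74 times in fl/fl, and the fl/fl library had fewer effector cells. In activated conventional CD4 cells Maf was at 373 and 298 CPM (-0.32, -0.54 to -0.11). For effector Treg cells with a UMI of Klrg1, Il10 or Gzmb minus activated conventional CD4 cells, the difference of ratios was 0.78 (0.54 to 1.02). The thinned share in Treg cells was 27.5% in +/+ and 20.3% in fl/fl, beside 2.62% and 1.72% of naive CD8 cells.

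The mix of states was therefore set alike in 2 ways. In the first the 3 states had equal weight, and in the other the cells were weighted so that the resting-minus-effector score was spread as in +/+, over 13 bins of at least 20 cells that held 97.2% of +/+ and 99.2% of fl/fl Treg cells. Bhlhe40 kept log2 ratios of -1.05 and -0.97, and Tox2 of -1.33 and -1.20, smaller than the -1.66 and -2.45 of the cells as they came. Prdm1 went from 0.06 to 0.83 and 1.41, and Maf from -0.34 to 0.37 and 0.65. Tbx21 went from -0.70 to 0.12 and 0.43. Gata3 went from -0.43 to -0.27 and -0.03, and Bcl6 from -0.07 to -0.45 and -0.27. Irf4 (0.25 and 0.47) and Tox (-0.40 and -0.19) kept their direction.

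**Figure D3:**
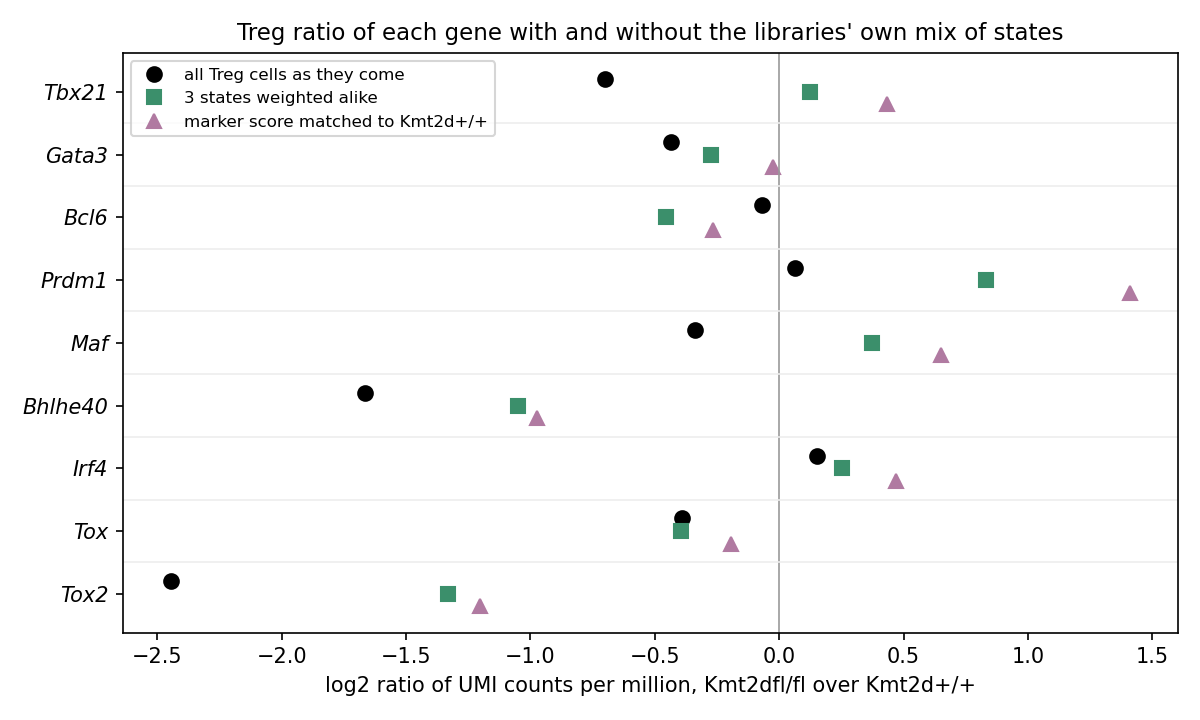
Log2 ratio of CPM in Treg cells, fl/fl over +/+ (x axis), of the 9 factors (rows), for all Treg cells as they come (circles), the 3 states weighted alike (squares) and the marker score spread as in +/+ (triangles). Maf and Tbx21 change sign, Prdm1 moves from 0.06 to 1.41, and Bhlhe40 and Tox2 stay below 0.

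Along the score the libraries separated gene by gene. Bhlhe40 was lower in fl/fl in 13 of 13 bins, and Tox2 in 12 of 13, with both libraries at 0 in the remaining bin. Maf and Irf4 were higher in fl/fl in 13 of 13 bins and Prdm1 in 12 of 13. The Irf4 intervals of the libraries overlapped in every bin from -3 to 1 and at 7 and 8, where +/+ had 11 and 0 counts. Those of Prdm1 overlapped at -4 and from 2 to 8, and from 4 to 8 the +/+ library had 5 or fewer Prdm1 counts. Intervals also overlapped at 7 and 8 for Bhlhe40, at 5, 6 and 8 for Maf, and at 2, 3, 4, 6 and 7 for Tox2. Bcl6 was lower in fl/fl in 5 of 5 bins at a score of 0 or under. There it ranged from 99.9 to 145 CPM in +/+ and from 48.9 to 91.2 CPM in fl/fl, with overlapping intervals at -4 and 0. In the 8 bins above 0 it was higher in 3 and lower in 5. Tox was likewise lower in 5 of 5 bins at or under 0, and higher in 6 of the 8 above. The bins of 1 library share its cells' preparation and depth, and so are not replicates.

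**Figure D4:**
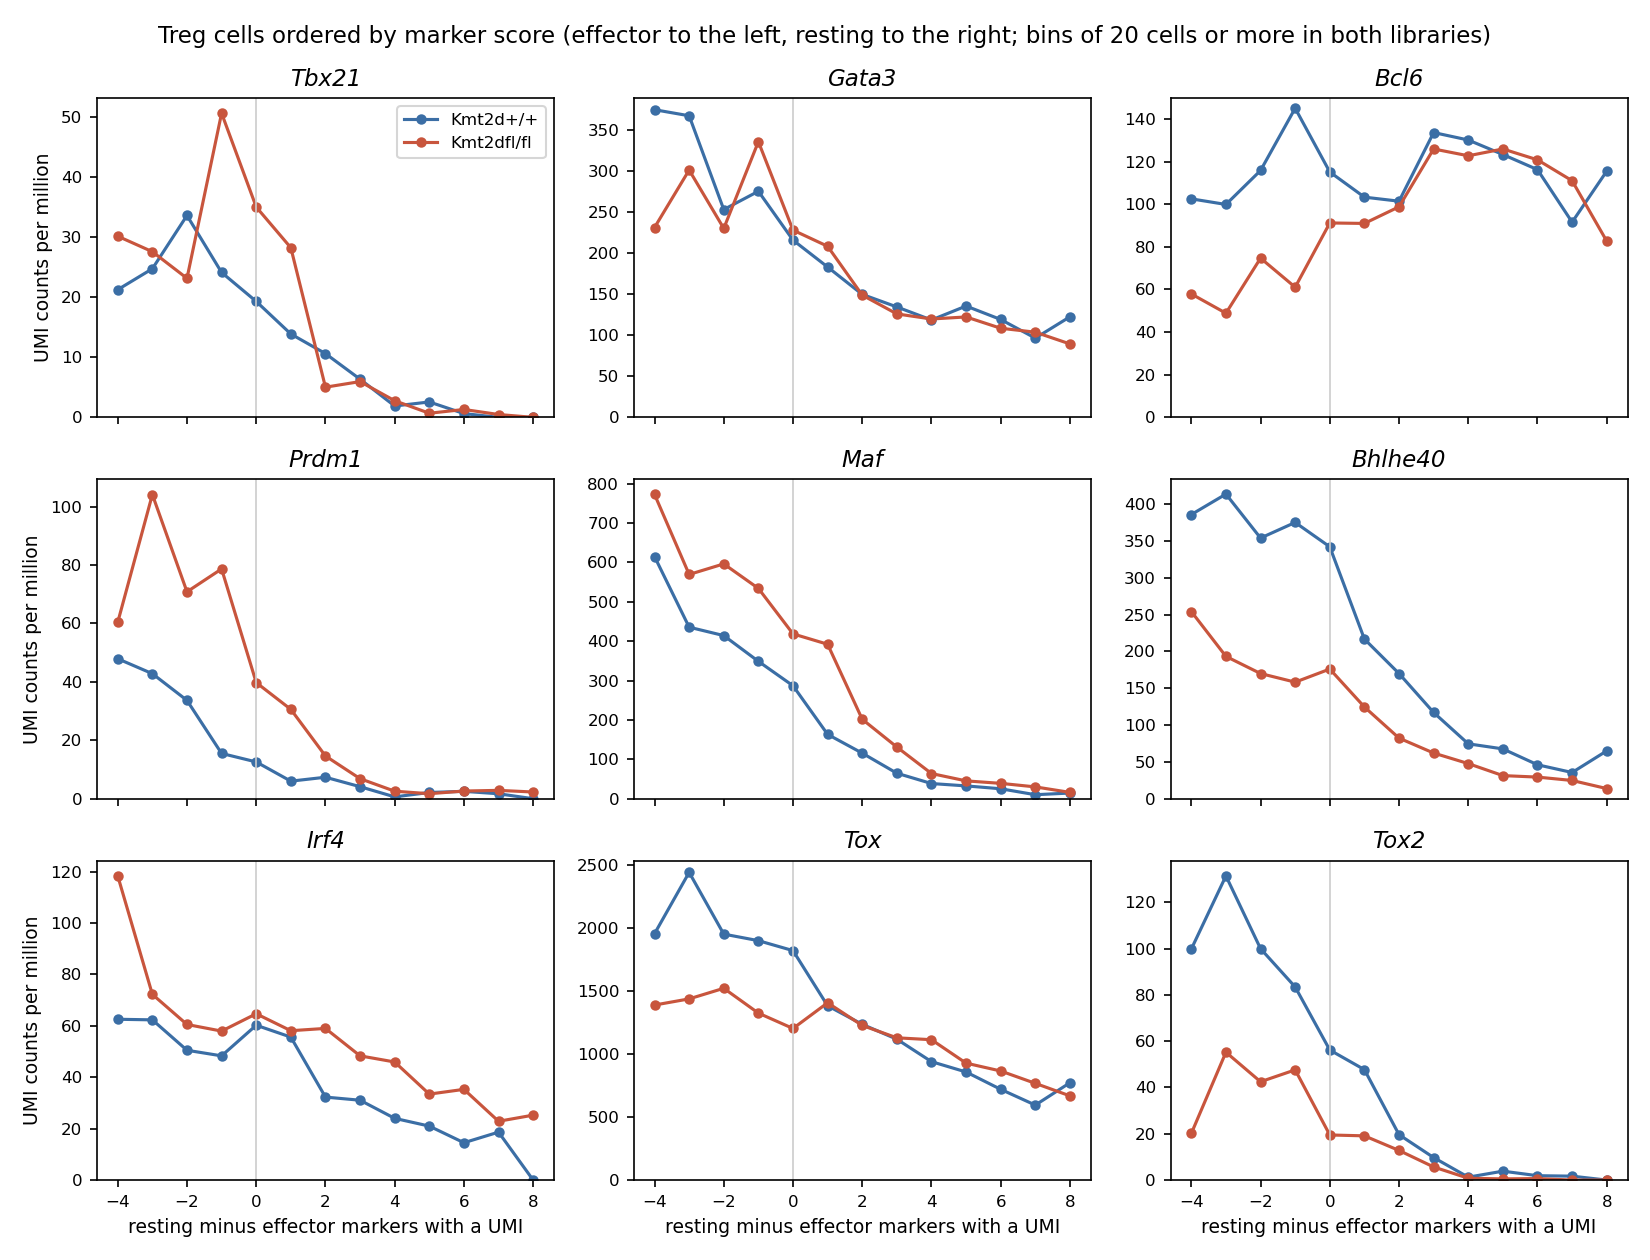
Level in CPM (y axis, from 0) of each of the 9 factors in Treg cells, by the number of resting minus effector markers with a UMI (x axis), in the +/+ library (blue) and the fl/fl library (red), for bins of 20 cells or more in both. The Bhlhe40 curve of fl/fl lies under that of +/+ in all 13 bins, the Maf curve above it, and the Bcl6 curve of fl/fl lies under that of +/+ in the 5 bins at or under 0.

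Tbx21, the Th1 factor (chr11:97098071-97115331, minus strand), was scarce in Treg cells and lower in fl/fl as the cells came, at 13.5 and 8.29 CPM, from 333 and 240 counts (-0.70, -0.95 to -0.46). Resting cells, at 5.96 and 3.75 CPM, were under the floor. In effector cells it was at 22.1 and 21.2 CPM without a UMI of Klrg1, Il10 or Gzmb, and 41.7 and 51.1 CPM with one, with overlapping intervals. The thinned share of Treg cells with a Tbx21 UMI was 2.53% in +/+ and 1.80% in fl/fl, beside 0.780% and 0.568% of B cells. Outside Treg cells Tbx21 was higher in fl/fl in activated CD4 and naive CD8 cells. Activated CD4 cells were at 87.6 and 132 CPM, a ratio of 0.59 (0.19 to 0.99) just inside the rule. Naive CD8 cells were at 12.0 and 33.0 CPM, from 18 and 62 counts (1.46, 0.68 to 2.30). Memory CD8 cells were at 139 and 159.5 CPM (0.20, -0.26 to 0.68), overlapping activated CD4 cells in both libraries. The Treg minus conventional CD4 difference of the log2 ratios was -1.86 (-2.26 to -1.46), whereas activated cells were 14.9% of conventional CD4 cells in +/+ and 24.9% in fl/fl. For Bhlhe40 the same difference was -2.90 (-3.11 to -2.70), for Tox2 -3.19 (-3.69 to -2.69) and for Bcl6 -0.06 (-0.26 to 0.13).

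Gata3, the Th2 factor (chr2:9857078-9890034, minus strand), had 195 CPM in the +/+ Treg cells against 144 CPM in the fl/fl ones, a ratio of -0.43 (-0.49 to -0.37) that fell short of 1.5-fold. Resting cells were at 139 and 125 CPM (-0.16), and effector cells without a UMI of Klrg1, Il10 or Gzmb at 267 and 294 CPM (0.14, -0.02 to 0.30). In effector cells with such a UMI it was lower in fl/fl, 408 against 254 CPM (-0.68, -0.86 to -0.50). That state had the top Gata3 level in +/+, whereas in fl/fl the intervals of the effector states overlapped. The thinned share there was 57.5% in +/+ and 37.0% in fl/fl, beside 0.195% and 0.243% of B cells. Activated conventional CD4 cells were at 139 and 108 CPM (-0.36, -0.72 to 0.00). In effector cells without a UMI of Klrg1, Il10 or Gzmb but with a Foxp3 UMI, Gata3 was at 266 and 550 CPM (1.05, 0.72 to 1.37), the fl/fl value from 36 cells, whereas without a Foxp3 UMI it was at 267 and 247 CPM. Gata3 overlaps 9230102O04Rik on its own strand, and reads of the shared stretch cannot be assigned.

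Genes of the helper programmes were read beside their factors in Treg cells. Of 9 measured Th1 genes, 3 were higher and 3 lower in fl/fl, with a median log2 ratio of -0.46 beside -0.13 for all genes. Eomes, a T-box factor related to T-bet, was at 2.79 and 12.8 CPM (2.20), Ccl5, a chemokine of effector T cells, at 173.9 and 272 CPM (0.65), and Il18r1, an interleukin-18 receptor chain, at 72.5 and 38.6 CPM (-0.91). Over all genes 2.48% were higher and 9.49% lower in this gate. Of 7 measured Th2 genes, 5 were lower and 0 higher, with a median of -0.96. Il1rl1 encodes the interleukin-33 receptor ST2, which GATA3-expressing tissue Treg cells carry, and it was at 21.6 and 0.760 CPM, from 535 and 22 counts (-4.83, -5.52 to -4.22). Areg, the growth factor amphiregulin, was at 43.1 and 20.6 CPM (-1.07). Of 9 measured Tfh genes, 3 were lower and 0 higher, with a median of -0.51. Cxcr5, the follicle-homing receptor, was at 25.7 and 11.3 CPM (-1.19), Pdcd1 (PD-1) at 42.9 and 18.5 CPM (-1.21), and Il6ra, an interleukin-6 receptor chain, at 92.7 and 30.9 CPM (-1.58). Of 3 measured Th17 genes 1 was lower, Rora, at 225 and 89.1 CPM (-1.34), and 0 were higher. These values are of all Treg cells, whose mix of states differed between the libraries. In resting cells Il18r1 (-1.295), Cxcr5, Pdcd1 and Rora were lower past the rule. In effector cells without a UMI of Klrg1, Il10 or Gzmb, Il18r1 was higher (0.53, 0.325 to 0.73), short of 1.5-fold. Cxcr5 (-0.31), Pdcd1 (-0.51) and Rora (-0.36) were lower there but short of it. Eomes, Il1rl1, Areg and Il6ra passed the rule there in the same direction as in all Treg cells.

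Of 29 measured genes in a list of effector Treg factors and partners, 8 were lower and 1 higher, with a median of -0.36. Among the lower ones, Junb, an AP-1 subunit, was at 2273 and 1237 CPM (-0.88), Zbtb7b (ThPOK), a CD4 lineage factor, at 35.8 and 20.1 CPM (-0.83), and Nfil3, counted also in the Th2 list, at 42.6 and 21.4 CPM (-0.99). In effector cells without a UMI of Klrg1, Il10 or Gzmb, Junb (-0.82) and Nfil3 (-0.85) stayed past the rule and Zbtb7b (-0.48) did not. The higher one, Lef1, at 370 and 629.5 CPM (0.77), is a resting marker of the gates. The Th1 count was also taken by state. In resting Treg cells 2 of 6 measured Th1 genes were higher and 2 lower (median 0.02 beside -0.11), where 2.59% of all genes were higher and 8.1% lower. Among effector cells without a UMI of Klrg1, Il10 or Gzmb 4 of 9 were higher and 1 lower (median 0.53 beside -0.04), where the shares over all genes were 5.32% and 7.88%. With such a UMI 5 of 9 were higher and 0 lower (median 0.76 beside -0.08), where they were 6.12% and 11.5%. In activated conventional CD4 cells 6 of 9 were higher and 0 lower (median 1.06 beside -0.02), where they were 3.45% and 5.12%. Th2 genes were lower in 2 of 6 in resting cells, with 0 higher, and in 4 of 8 in each effector state, with 1 and 0 higher. Marker genes of the gates were left out of these counts by state. The lists were chosen with results of these data known, and the counts describe these libraries only.

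Genes whose levels ran most like each factor were sought over 14 points, the 7 gates in each library, among 6850 genes. Pearson's r of log2(CPM + 1) was highest with Il18rap for Tbx21 (0.98), Gnaq for Gata3 (0.98), Ddx5 for Bcl6 (0.94), Glrx for Prdm1 (0.97), Adam12 for Maf (0.97), Rora for Bhlhe40 (0.97), Tap1 for Irf4 (0.88), Itgb8 for Tox (0.98) and Paxbp1 for Tox2 (0.96). The next genes were Myo1f and Nabp1 for Tbx21, Ctsz and Tank for Gata3, Crebbp and Mycbp2 for Bcl6, B2m and Ubb for Prdm1, Smco4 and Ccr4 for Maf, Bcl2a1d and Entpd1 for Bhlhe40, Pdia6 and Cstb for Irf4, Camk2d and Atp9b for Tox, and Map3k4 and Adipor2 for Tox2. The points share 2 libraries, so these values describe the pattern over gates and carry no test.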

How the data were processed

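The deposited files hold raw UMI counts per gene and barcode, which the authors made with Cell Ranger 7.1.0 per the file headers. The submitters' processing notes also name fastp and Seurat 4.1.1 and the builds mm10 and GRCm38. The filter behind the deposited barcodes, and whether introns were counted, are not given in the sources used here. The labels state that cells of 3 mice were pooled per library.

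Barcodes with under 500 genes or over 10% mitochondrial counts were left out (7790 and 8634 passed). The Scrublet method, written anew and run per library, scored doublets, with a threshold by Otsu's method on simulated doublets, and 93 (1.19%) and 179 (2.07%) were removed. Gates used UMIs of fixed markers: T cells needed 2 or more Cd3 UMIs and at most 1 of B cell or myeloid markers. Conventional CD4 cells needed a Cd4 UMI, no Foxp3 and at most 1 Ikzf2 UMI, and CD8 cells 2 or more Cd8a and Cd8b1 UMIs with no Cd4. Counts were summed over each gate of a library and divided by that gate's UMIs (CPM). Ratios have exact conditional binomial intervals, levels exact Poisson ones, shares Clopper-Pearson ones, and differences of ratios delta-method ones. Levels of different genes were not compared. A gene passed when its CPM ratio was 1.5 or more either way, its interval excluded no difference and it reached 10 CPM in either library. For shares, cells under 2500 UMIs (33 and 14 Treg cells) were left out. The calling was tested on simulated data. Python 3.11.15 with numpy 2.4.6, scipy 1.17.1, pandas 2.3.3, scikit-learn 1.9.0, scikit-image 0.26.0 and matplotlib 3.10.9 was used.

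Named genes are the 9 factors, Kmt2d and Foxp3, up to 4 genes of each list past the rule in Treg cells, and the genes most like each factor. The factors, lists and gates were chosen with earlier results of these data known. Ctla4, Bach2, Ccr8, Tnfrsf4, Tnfrsf18, Capg, Il2ra and Dapl1 are check markers. Alternatives were other scaling, barcode, doublet, mitochondrial, Foxp3, Ikzf2, Cd4, state, depth and cycling choices, other floors and folds, and the mix of Treg states. Promoter windows came from RefSeq. Some list genes and gate markers are not reported here by name.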

Additional observations from a re-analysis of the deposited data

Results flagged for a closer look

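For 3 factors the ratio between the libraries passed the 1.5-fold rule in opposite directions among all Treg cells and the 7 states. With 1 library per genotype the difference between gates was not tested beyond counting error.

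For Bhlhe40 the log2 ratio (fl/fl over +/+) was -1.66 in all Treg cells, -1.30 in resting cells, -1.14 in effector cells without a UMI of Klrg1, Il10 or Gzmb and -0.901 with one. It was 1.05 in activated conventional CD4 cells and 1.19 in naive CD8 cells, the latter from 15 and 43 counts. For Tbx21 it was -0.70 in all Treg cells, 0.586 in activated conventional CD4 cells and 1.46 in naive CD8 cells. The Tbx21 value in Treg cells turned to 0.12 when the 3 states had equal weight. For Irf4 it was 0.85 in naive CD8 cells and -0.765 in activated conventional CD4 cells, each from under 100 counts per library. Outside this comparison, Tox2 was also higher in the whole conventional CD4 gate (0.74) and lower in Treg cells (-2.45).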

How the results depend on the processing

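No paired analysis was possible because each genotype has 1 library, and leaving out a replicate was not possible for the same reason. With no replicates, depth and the number of cells limit the small gates most, and nothing separates genotype from library or pool. Of 610 single ratios under the alternatives, 505 stayed within the counting interval of the value reported. In 35 the sign changed: in 2 of 184 for ratios past the rule, in 7 of 200 for ratios under it whose interval excluded 0, and in 26 of 226 for the rest. Of 101 counts of factors past the rule, 90 stayed within 1.5 times. Of 36 shares, 35 moved with the thinning depth, as a share of cells with a UMI must.

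Among ratios past the rule the sign changed for Tbx21 in Treg cells, to 0.125 with the 3 states weighted alike and 0.433 with the score matched to +/+, the latter chosen after seeing the data. Among the 7, Maf in Treg cells went to 0.373 and 0.649 under the same settings, and the others were Tox in resting Treg and naive CD8 cells and Gata3 in resting Treg cells, at 0.0014 to 0.113. Counts in Treg cells went from 3 to 6 at a lower fold threshold, and in resting cells from 2 to 1 at a floor of 20 CPM and to 4 with no floor. At a fold of 2 the effector counts went from 4 to 2 (without a UMI of Klrg1, Il10 or Gzmb) and from 5 to 1 (with one). In activated conventional CD4 cells the count went from 3 to 5 at the lower threshold and to 1 at 2-fold. In naive conventional CD4 cells it went from 0 to 2 in thinned cells, and to 1 with no floor or at the lower threshold. In memory CD8 cells it went from 0 to 1 with a margin of 2 markers. Over these settings Bhlhe40 ranged from -1.86 to -0.973 in Treg cells and Tox2 from -2.84 to -1.20. In resting cells Tox2 ranged from -2.71 to -1.36. Prdm1 in effector cells without a UMI of Klrg1, Il10 or Gzmb ranged from 1.22 to 1.73, and Tox2 there from -4.18 with only Foxp3-UMI cells to -0.562. Tbx21 in activated conventional CD4 cells ranged from 0.252 to 0.702, Bhlhe40 in naive CD8 cells from 0.891 to 2.18 and Irf4 there from 0.817 to 1.92.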

Other observations

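Memory CD8 cells of the fl/fl library held 202 CPM of Ikzf2 beside 24.3 CPM in +/+ (a log2 ratio of 3.05), from 116 and 60 cells. The summed markers of other cells there were 51.1 CPM in +/+ and 236 CPM in fl/fl, of which Hbb-bs, a red blood cell gene, made 204 CPM. In that gate Bhlhe40 was at 199.5 and 186 CPM and Tbx21 at 139 and 159.5 CPM, with overlapping intervals. Ikzf2 in this gate was picked out after its values were seen. The part of these markers in the values was not tested.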
